A study of Mus musculus with 4 samples.

Results

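Genes of the splicing machinery were examined in liver RNA of mice after hepatectomy. The set holds every row of the deposited table whose symbol begins with Hnrnp, Snrp, Sf3a or Sf3b, or with Srsf or Lsm followed by a digit, and has 65 genes of 24421 in the table. They fall into 20 hnRNP genes, 11 SR protein genes, 12 Snrp genes, 9 SF3 genes and 13 LSm genes. Control livers (2 libraries, called 1 and 3 after the table's columns) came from hepatectomized mice given fibrin gel alone. Livers of the gelADSC group (2 libraries, called 2 and 3) came from hepatectomized mice whose fibrin gel carried ADSC, a short name in common use for adipose-derived stem cells that the labels do not spell out. Hepatectomy and fibrin gel were thus common to both groups, so the comparison is about the ADSC carried in the gel. Mouse strain and age, the time after surgery and the donor of the ADSC are not given in the labels. No label says that the libraries of a group came from separate animals, so p-values measure a spread between libraries that may be technical.

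Splicing removes introns from pre-mRNA. The spliceosome is built from small nuclear ribonucleoproteins (snRNPs), in which a ring of Sm proteins (Snrp genes) or LSm proteins (Lsm genes) clasps the small nuclear RNA. The SF3a and SF3b complexes hold the U2 snRNP on the branch point. SR proteins (Srsf genes) bind exons and mostly promote their inclusion, and hnRNP proteins coat nascent RNA and often act against it. Regenerating liver is a tissue in which these genes have been studied, because hepatocytes change their splicing programme as they re-enter the cell cycle. Values are FPKM, fragment numbers divided by transcript length and sequencing total, which can be compared between genes. They give 1 number per gene, so splice forms of a gene cannot be seen in them.

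The splicing genes stood close to the general shift between the groups. The test covered the 11070 genes whose average level was 1 FPKM or more, and 62 of the 65 splicing genes were among them. Of these 62, 3 fell in gelADSC (4.84%) and 0 rose, at an adjusted p under 0.05 in limma, adjusted by Benjamini-Hochberg across the 11070 genes. Among all tested genes 17.5% were called lower and 6.92% higher, so the share of called splicing genes lay below the background in both directions. At an unadjusted p under 0.05, 23 of the 62 passed (37.1%), against 39.9% of all tested genes. Log2 changes were differences of mean log2(FPKM + 1), as gelADSC minus control. They were negative for 51 of the 62, against 68.8% of all tested genes. The median of the 62 was -0.36, while the median over all tested genes was -0.25. Relative to all tested genes the median of the splicing genes was -0.12.

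The 3 called genes were Hnrnpab, Hnrnpu and Sf3b4. Groups did not overlap, with both gelADSC libraries lower, for 37 of the 62 (59.7%, against 50.5% of all tested genes), and with both higher for 3 (Hnrnpr, Srsf4 and Lsm6, against 19.2% of all tested genes). In a bulk tissue, fewer cells of a type and less RNA per cell cannot be told apart in any of these values. The calls also turned on the scaling of the libraries. Median ratio scaling moved the median of all tested genes by 0.25 and quantile normalization by 0.21. Under either scaling 0 of the 62 were called lower and 2, Srsf4 and Lsm6, were called higher. Of all tested genes, median ratio scaling called 8.56% lower and 8.60% higher, and quantile normalization 9.03% lower and 8.41% higher, so the 2 splicing genes were also a smaller share than the background.

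**Figure D1:**
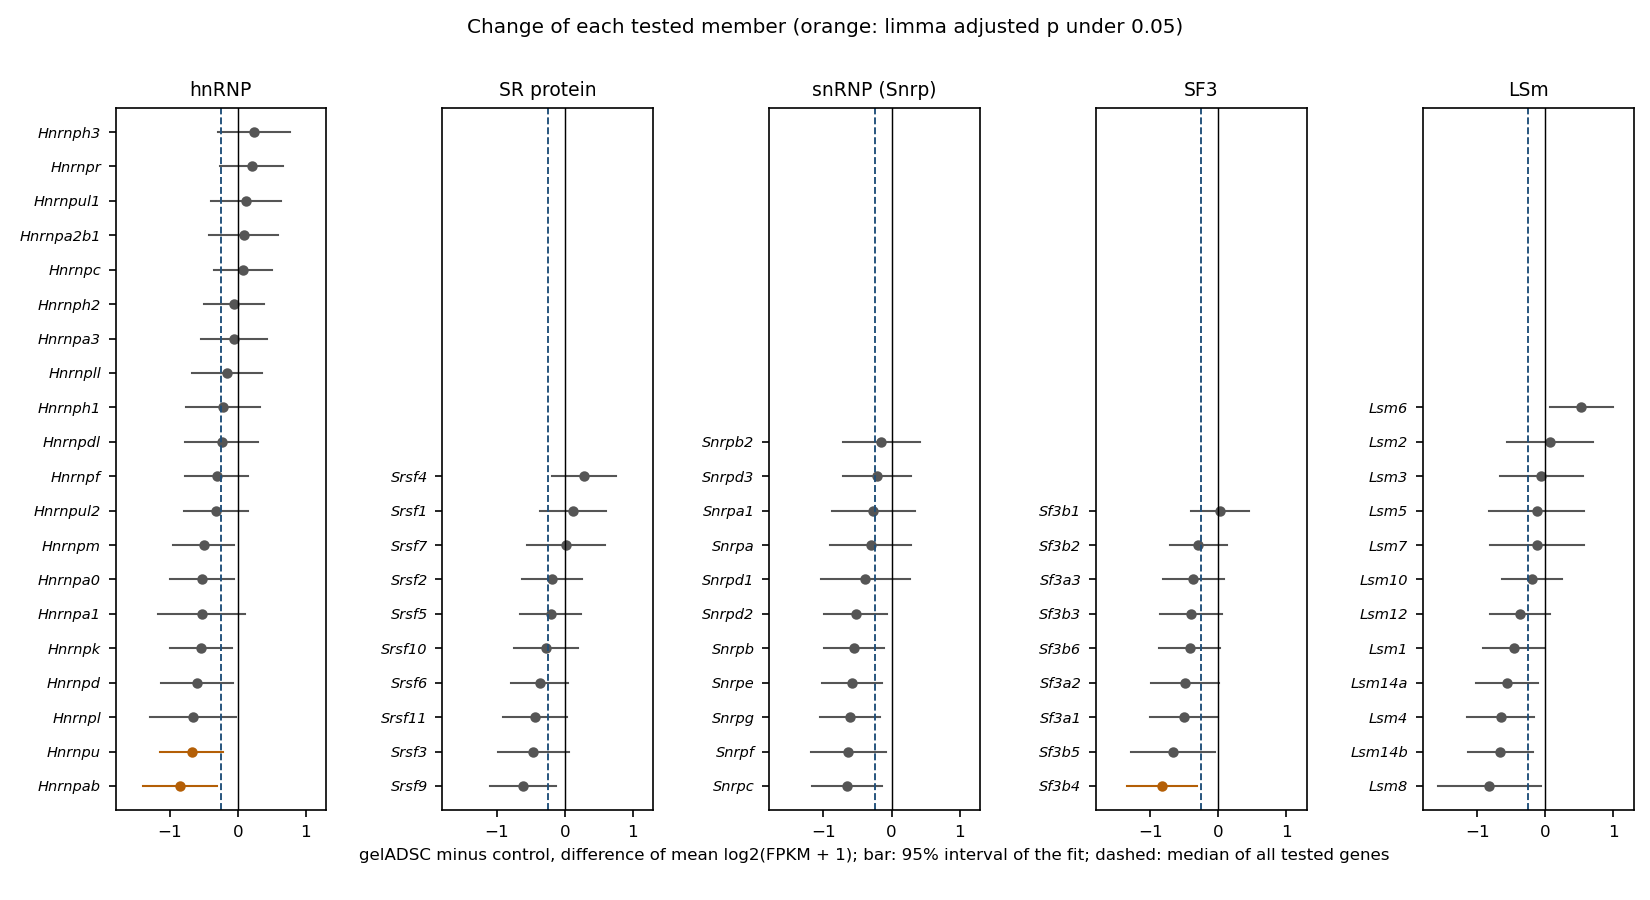
Log2 change between groups (x axis, control subtracted from gelADSC on the log2(FPKM + 1) scale) of the 62 tested splicing genes by family. Bars are 95% intervals of the limma fit, the dashed line is the median of all tested genes (-0.25), and orange marks the 3 genes called lower, Hnrnpab, Hnrnpu and Sf3b4.

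Upstream sequence is shown for 4 genes that the comparison turns on and for which RefSeq promoters were given, the lower Hnrnpab and Hnrnpu and the non-overlapping higher Lsm6 and Srsf4. Each run is the 250 bases before the annotated start, 5′ to 3′ on the gene's strand, in build GRCm38.p6. Capitals mark matches, on either strand, to the ETS core CCGGAA or the CCAAT box CCAAT. Hnrnpab lies at chr11:51606882-51607131 (minus strand), Hnrnpu at chr1:178337816-178338065 (minus strand), Lsm6 at chr8:78821153-78821402 (minus strand) and Srsf4 at chr4:131873387-131873636 (plus strand).
Hnrnpab: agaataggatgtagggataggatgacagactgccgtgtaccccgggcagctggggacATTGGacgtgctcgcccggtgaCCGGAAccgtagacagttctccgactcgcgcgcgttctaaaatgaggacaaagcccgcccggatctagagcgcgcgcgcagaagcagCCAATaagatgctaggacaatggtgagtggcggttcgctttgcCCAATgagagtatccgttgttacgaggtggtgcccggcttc
Hnrnpu: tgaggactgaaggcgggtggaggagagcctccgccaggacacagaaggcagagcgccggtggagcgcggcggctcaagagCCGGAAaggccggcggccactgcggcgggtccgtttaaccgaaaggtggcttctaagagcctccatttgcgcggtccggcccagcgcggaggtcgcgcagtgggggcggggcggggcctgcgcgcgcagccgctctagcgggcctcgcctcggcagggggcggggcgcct
Lsm6: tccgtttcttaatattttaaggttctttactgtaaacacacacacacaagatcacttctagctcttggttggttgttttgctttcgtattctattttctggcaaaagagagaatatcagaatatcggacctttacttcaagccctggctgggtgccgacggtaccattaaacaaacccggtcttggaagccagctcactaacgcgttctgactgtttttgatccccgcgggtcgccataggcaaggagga
Srsf4: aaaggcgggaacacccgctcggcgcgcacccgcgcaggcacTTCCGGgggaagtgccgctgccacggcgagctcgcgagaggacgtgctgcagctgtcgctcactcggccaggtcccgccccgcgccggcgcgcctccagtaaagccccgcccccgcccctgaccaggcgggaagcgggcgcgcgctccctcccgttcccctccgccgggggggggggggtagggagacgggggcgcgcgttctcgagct
Hnrnpab held 1 ETS core and 3 CCAAT boxes, Hnrnpu and Srsf4 held 1 ETS core each, and Lsm6 held none of the motifs searched. Lsm6 also had the fewest CpG dinucleotides of these 4, with 11, against 23 in Hnrnpab, 32 in Hnrnpu and 37 in Srsf4.

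Promoters were found by symbol for 56 of the 65 splicing genes. Of these windows 41.1% (23 of 56) held the ETS core, against 23.2% of 8412 tested genes and 12.2% of all 27025 promoters in the table. The CCAAT box was in 44.6% (25 of 56), against 36.7% of tested genes and 34.5% of all promoters. The E-box CACGTG was in 5.36%, the CRE TGACGTCA in 3.57% and the TATA box TATAAA in 8.93%, against 8.67%, 2.73% and 6.70% of tested genes. Splicing genes had a median of 19 CpG dinucleotides per window, and tested genes 16. Some windows lay partly or wholly in exons that GENCODE M21 gives the same gene, so they are not all upstream sequence. All 250 bases were exonic for Sf3a2 and Snrpd3, which held the ETS core, and for Hnrnpdl and Hnrnph3, which held no motif. Of the runs shown above, only that of Srsf4 had exonic bases (20). The matches are letter matches in a fixed window and no record of binding.

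The hnRNP genes were the most abundant of the 5 families, by summed FPKM, and the groups overlapped for the highest of them. Of 20 hnRNP genes, all tested, 2 fell and 0 rose, where 17.5% of all tested genes fell and 6.92% rose. The median log2 change of the hnRNP genes was -0.28 (-0.03 relative to all tested genes). That median had the opposite sign, 0.01 and 0.03, with median ratio scaling and quantile normalization. Hnrnpa2b1, which binds RNA through paired recognition motifs and takes part in splicing and mRNA transport, stood at 169 and 164 FPKM in control livers, and at 148 and 209 FPKM with gelADSC. Its gelADSC libraries lay on either side of the controls (166 ± 3.94 against 179 ± 42.9 FPKM, SD, n = 2 each, log2 change 0.08, limma adjusted p = 0.808). Hnrnpab, an hnRNP of the A/B type, read 121 and 85.7 FPKM in control and 48.4 and 64.9 FPKM in gelADSC. Both gelADSC libraries were lower than both controls, and the fall was from 103 ± 24.8 to 56.7 ± 11.7 FPKM (2 libraries in each group), a log2 change of -0.85 ± 0.24 (SE) at a limma adjusted p of 0.0341. The call was lost without control library 1 (adjusted p = 0.220) and without gelADSC library 2 (adjusted p = 0.141), and over the 12 alternative settings the adjusted p ran from 0.00472 to 0.220.

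Hnrnpu, a nuclear scaffold protein that binds chromatin and RNA, read 108 and 82.4 FPKM in control and 59.3 and 57.6 FPKM in gelADSC. The gelADSC libraries nearly coincided and lay below both controls, with a fall from 94.96 ± 17.8 to 58.5 ± 1.20 FPKM (2 libraries in each group), a log2 change of -0.68 ± 0.20 (SE) at a limma adjusted p of 0.0415. That call was lost when the mean-variance trend was left out of the fit, and with control library 1 (adjusted p = 0.191), gelADSC library 2 (0.102) or gelADSC library 3 (0.114) removed. Its relative Hnrnpul1 read 30.9 and 25.9 FPKM in control and 25.6 and 37.1 FPKM in gelADSC, with overlapping groups. Reads of Hnrnpab and Hnrnpu could be mixed with those of overlapping genes on the other strand, Phykpl and Cox20 in GENCODE M21, since the strand setting of the counting is not given. Phykpl read 15.3 and 10.4 FPKM in control and 6.61 and 6.78 FPKM in gelADSC (limma adjusted p = 0.0317). Cox20 read 70.1 and 53.7 against 67.6 and 60.5 FPKM (limma adjusted p = 0.859). Exons of another gene overlapped 25 of the 65 splicing genes. Sf3b4, Srsf4, Hnrnpk, Hnrnpl, Snrpd3 and Srsf2 were also among those with such a gene on the other strand.

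Other abundant hnRNP genes read lower without passing the test. Hnrnpk, a KH domain protein that binds C-rich RNA, read 86.0 and 69.6 FPKM in control and 49.5 and 56.8 FPKM in gelADSC (limma adjusted p = 0.0806). Hnrnpl, which binds CA repeats, read 67.0 and 39.8 FPKM in control and 27.2 and 38.3 FPKM in gelADSC (limma adjusted p = 0.114). Its groups were separate by a narrow margin, and the gene was called when gelADSC library 3 was left out (adjusted p = 0.0243). Hnrnpc, which binds uridine tracts, read 29.3 and 33.6 FPKM in control and 32.4 and 33.8 FPKM in gelADSC, so its groups overlapped. The F/H type genes Hnrnpf, Hnrnph1, Hnrnph2 and Hnrnph3, which bind G-rich runs, ranged from 79.4% to 126% of the control mean. Of these 4, 0 were called, where 17.5% of all tested genes were called lower and 6.92% higher. Hnrnph3 read 2.66 and 1.91 FPKM in control and 2.51 and 3.23 FPKM in gelADSC, and Hnrnpr 3.05 and 3.17 FPKM in control and 3.68 and 3.76 FPKM in gelADSC (limma adjusted p = 0.494).

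Hnrnpa1 and its close relative Hnrnpa3 were among the lowest of the family. Hnrnpa1, an antagonist of exon inclusion, read 4.99 and 2.52 FPKM in control and 2.08 and 2.27 FPKM in gelADSC (limma adjusted p = 0.188). Control library 1 stood above the other libraries, and without control library 3 the gene was called (adjusted p = 0.0465). Hnrnpa3 read 8.20 and 6.24 FPKM in control and 6.46 and 7.25 FPKM in gelADSC, with overlapping groups. Both levels are uncertain, because 58.5% of the longest coding transcript of Hnrnpa1 and 28.9% of that of Hnrnpa3 matched transcripts of other GENCODE M21 genes, mostly processed pseudogenes (at least 97% identity over at least 100 bases). Reads from such stretches may not be assigned to 1 gene with certainty. The same limit holds for other splicing genes. At least 50% of the transcript was matched for 5 of the 65, Hnrnpa1, Hnrnpf (59.5%), Srsf5 (51.7%), Sf3b4 (66.6%) and Lsm5 (56.5%). Smaller shares were matched in more of them, such as Hnrnpk (46.4%), Snrpc (42.3%) and Snrpe (33.6%).

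**Figure D2:**
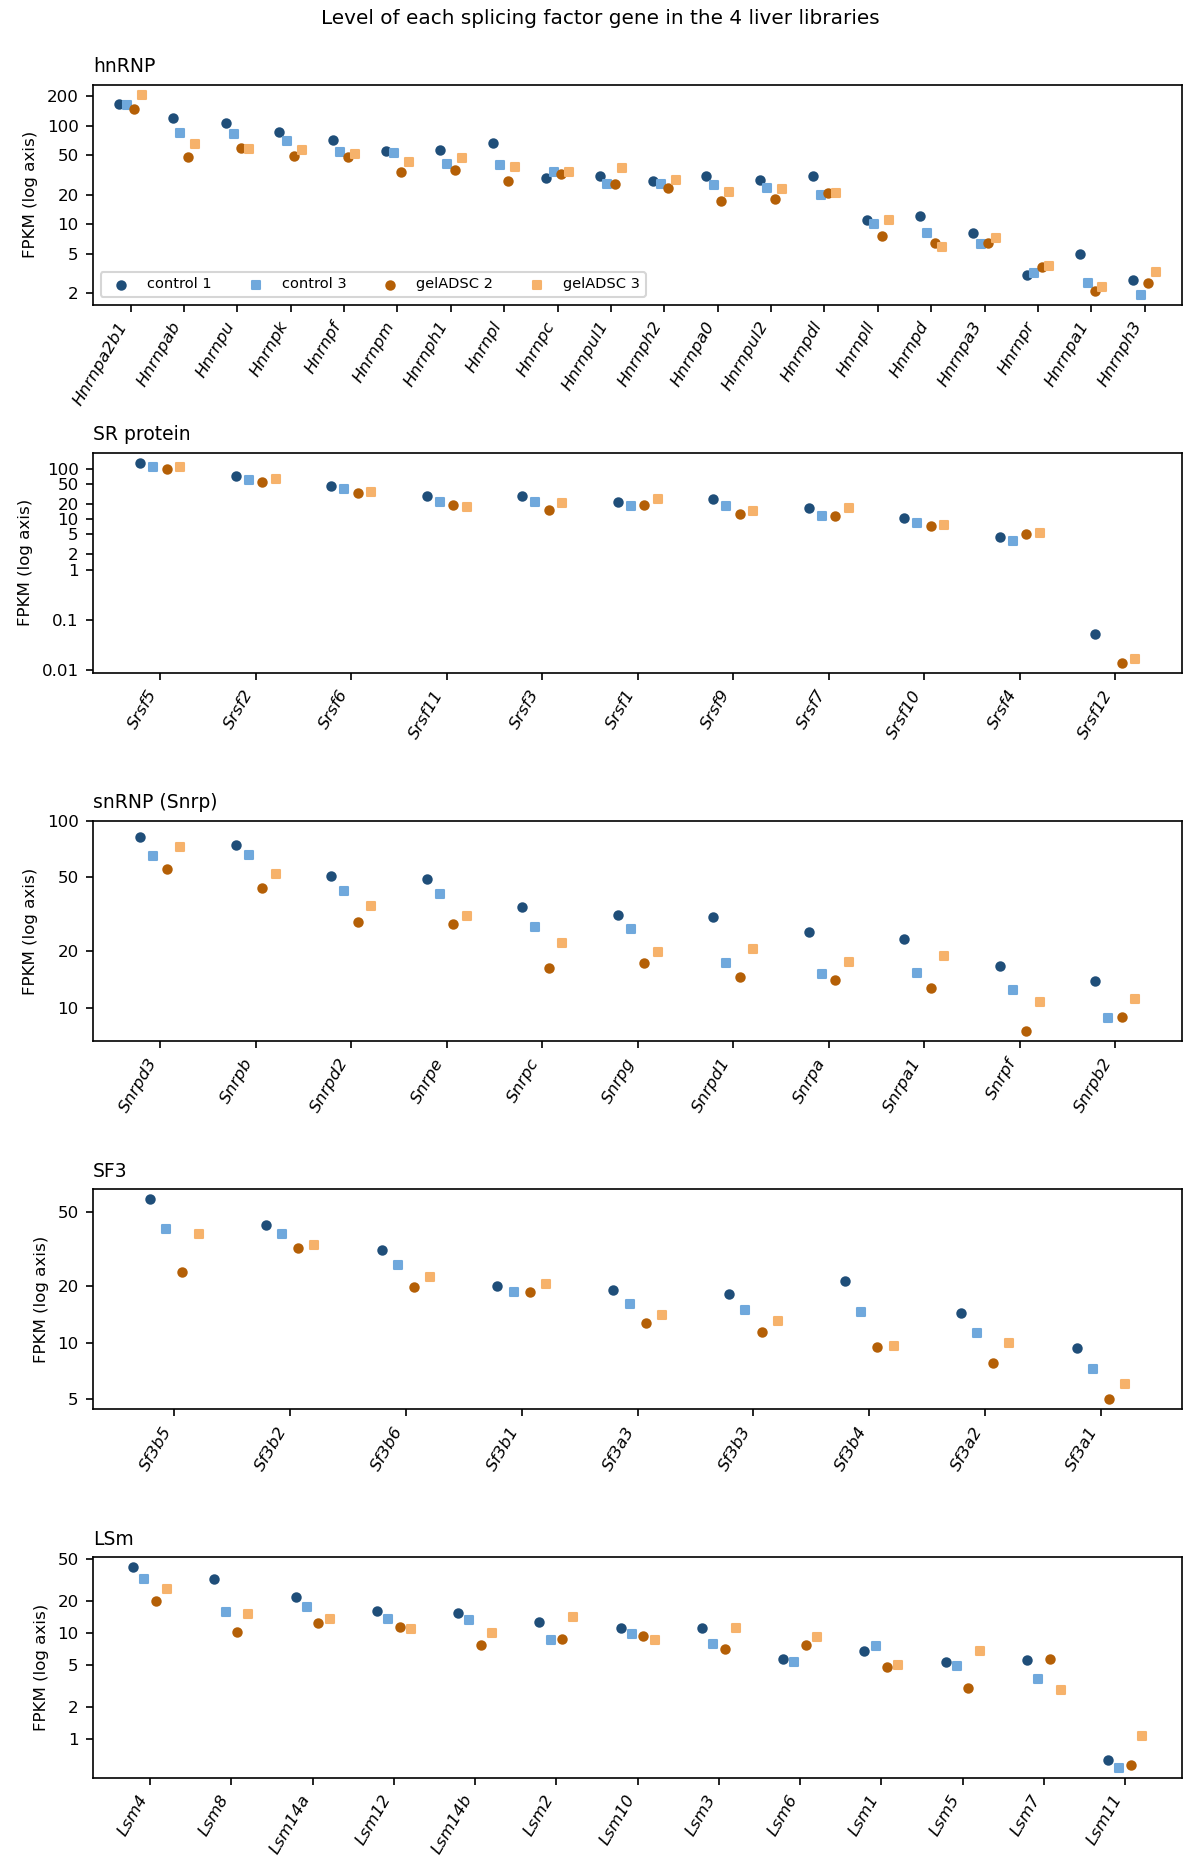
FPKM on a log axis for each splicing gene in each of the 4 libraries, ordered within a family by mean level (a value of 0 is not drawn, and Snrpn, at 0 throughout, is left out). Control library 1 is the highest of the 4 for 45 of the 62 tested genes, and gelADSC library 2 is the lowest for 44.

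The median change of SR protein genes was close to that of all tested genes. Of 11 genes 10 were tested and 0 of them fell or rose at the threshold, where 17.5% of all tested genes fell and 6.92% rose. At an unadjusted p under 0.05, 1 of the 10 passed, against 39.9% of all tested genes. The median log2 change of the SR protein genes was -0.24 (0.01 relative to all tested genes). Srsf5, an SR protein induced in growing liver cells, read 133 and 109 FPKM in control and 99.8 and 108 FPKM in gelADSC. The groups were separate by a small margin and the test was not passed (121 ± 17.4 against 104 ± 6.12 FPKM, n = 2 each, log2 change -0.21, limma adjusted p = 0.461). Srsf2, which binds exonic enhancers, read 71.4 and 61.7 FPKM in control and 53.9 and 63.2 FPKM in gelADSC, with overlapping groups. Srsf9 had the most negative change of the family, from 25.2 and 18.7 FPKM in control to 13.0 and 14.8 FPKM in gelADSC (log2 change -0.61, limma adjusted p = 0.0671).

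Srsf4, Srsf1 and Srsf7 had positive changes. Srsf4, a large SR protein with a long RS domain, read 4.52 and 3.77 FPKM in control and 5.07 and 5.44 FPKM in gelADSC. Both gelADSC libraries were above both controls (log2 change 0.28, 95% interval -0.19 to 0.76, limma adjusted p = 0.332), and the difference was called with median ratio scaling (adjusted p = 0.0407) and quantile normalization (adjusted p = 0.0493). Srsf1, the founding SR protein, read 22.2 and 18.7 FPKM in control and 19.3 and 25.4 FPKM in gelADSC. Srsf7 read 16.6 and 11.6 FPKM in control and 11.8 and 17.0 FPKM in gelADSC, so each group spanned nearly the same range. Srsf12, a low-level SR protein, was not tested: it read 0.0512 and 0 FPKM in control and 0.0139 and 0.0169 FPKM in gelADSC.

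Snrp genes read lower in gelADSC without passing the test. Limma called 0 of 11, where 17.5% of all tested genes were called lower. At an unadjusted p under 0.05, 6 of the 11 passed, against 39.9% of all tested genes. All 11 tested Snrp genes had negative log2 changes, where 68.8% of all tested genes did. The Snrp changes ran from -0.65 to -0.15, with a median of -0.53 (-0.28 relative to all tested genes). Median ratio scaling gave a median of -0.24 and quantile normalization one of -0.23, where 3 and 4 of the 11 were positive. The 7 genes of the Sm ring (Snrpb, Snrpd1, Snrpd2, Snrpd3, Snrpe, Snrpf and Snrpg) read between 62.2% and 86.4% of the control mean. Groups did not overlap for 5 of these 7, beside 50.5% of all tested genes in that direction. Snrpd3, the most abundant, read 82.4 and 65.3 FPKM in control and 55.4 and 72.1 FPKM in gelADSC. Snrpb, which encodes the SmB protein of the ring, read 74.6 and 66.0 FPKM in control and 43.5 and 51.8 FPKM in gelADSC (70.3 ± 6.08 against 47.7 ± 5.90 FPKM, n = 2 each), a log2 change of -0.55 ± 0.19 (SE) at a limma adjusted p of 0.0680.

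The nearest to the threshold in the ring was Snrpg, at 31.5 and 26.4 FPKM in control and 17.4 and 19.8 FPKM in gelADSC (limma adjusted p = 0.0530). Snrpc, a protein of the U1 snRNP, had the most negative change, with 34.4 and 26.9 FPKM in control and 16.3 and 22.2 FPKM in gelADSC (log2 change -0.65, limma adjusted p = 0.0661). Snrpa of the U1 snRNP and Snrpa1 and Snrpb2 of the U2 snRNP had overlapping groups. Snrpn, the close copy of Snrpb known from neurons, was listed at 0 in all 4 libraries, as was Snurf, whose transcript it shares. Exons of Snurf and Gm38393 overlap those of Snrpn on the same strand in GENCODE M21. How reads of such stretches were assigned is not known, so these values do not show that the transcript was absent.

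Of 9 SF3 genes 8 had separate groups, all lower in gelADSC, where 50.5% of all tested genes did, and 1 was called, where 17.5% of all tested genes were called lower. Their median log2 change was -0.42 (-0.17 relative to all tested genes), and it remained negative, at -0.14 and -0.11, with median ratio scaling and quantile normalization. Sf3b4, an SF3b subunit that contacts pre-mRNA near the branch point, read 21.5 and 14.7 FPKM in control and 9.53 and 9.66 FPKM in gelADSC. The gelADSC libraries were nearly equal and both lower, with a fall from 18.1 ± 4.82 to 9.60 ± 0.0924 FPKM (2 libraries in each group), a log2 change of -0.83 ± 0.22 (SE) at a limma adjusted p of 0.0309. The call was lost without control library 1 (adjusted p = 0.167), gelADSC library 2 (0.0811) or gelADSC library 3 (0.0650). A processed pseudogene of GENCODE M21 matched 66.6% of its longest coding transcript, so its level is uncertain.

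Sf3b5, a small SF3b subunit and the most abundant gene of the family, read 58.5 and 40.5 FPKM in control and 24.0 and 38.0 FPKM in gelADSC (limma adjusted p = 0.101). Sf3b2 read 42.6 and 38.4 FPKM in control and 32.3 and 33.2 FPKM in gelADSC (limma adjusted p = 0.257). Sf3b1, the large scaffold of SF3b, was the exception: it read 20.04 and 18.6 FPKM in control and 18.6 and 20.7 FPKM in gelADSC (log2 change 0.02, 95% interval -0.40 to 0.45). All 3 SF3a genes had separate groups, at 66.6% to 76.2% of the control mean, with 0 called. Of all tested genes 50.5% were separate and lower, and 17.5% were called lower.

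LSm genes mostly read lower in gelADSC, as did most tested genes, with 10 of 12 negative against 68.8% of all tested genes. The 2 positive genes were Lsm6 and Lsm2. Of 13 LSm genes 12 were tested and 0 were called by limma, where 17.5% of all tested genes were called lower. At an unadjusted p under 0.05, 6 of the 12 passed, against 39.9% of all tested genes. LSm log2 changes ran from -0.82 to 0.53, with a median of -0.28 (-0.03 relative to all tested genes, and 0.00098 with quantile normalization). The ring of Lsm2 to Lsm8, which binds the U6 small nuclear RNA, held both ends of that range, Lsm8 and Lsm6. Lsm6, shared by the nuclear ring and the cytoplasmic ring that promotes mRNA decapping, read 5.64 and 5.33 FPKM in control and 7.61 and 9.24 FPKM in gelADSC. Both gelADSC libraries were higher (5.48 ± 0.215 against 8.43 ± 1.15 FPKM, n = 2 each), a log2 change of 0.53 ± 0.20 (SE) at a limma adjusted p of 0.0863. It was called under median ratio scaling (adjusted p = 0.0249) and quantile normalization (adjusted p = 0.0245). Lsm8, the subunit particular to the nuclear ring, read 32.6 and 15.8 FPKM in control and 10.3 and 15.2 FPKM in gelADSC, with control library 3 close to gelADSC library 3 (log2 change -0.82, SE 0.33, limma adjusted p = 0.102). It was called without control library 3 (log2 change -1.32, adjusted p = 0.0392) and without gelADSC library 3 (-1.08, adjusted p = 0.00967), while without control library 1 the change was -0.32 (adjusted p = 0.523).

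Lsm4, the most abundant LSm gene, read 41.7 and 32.5 FPKM in control and 20.3 and 26.2 FPKM in gelADSC (limma adjusted p = 0.0585). Lsm2 read 12.8 and 8.61 FPKM in control and 8.70 and 14.2 FPKM in gelADSC, with overlapping groups. Lsm1, which takes the place of Lsm8 in the cytoplasmic ring, read 6.80 and 7.44 FPKM in control and 4.78 and 5.01 FPKM in gelADSC (limma adjusted p = 0.118). Lsm14a and Lsm14b, components of cytoplasmic RNA granules, had separate groups at 65.9% and 61.3% of the control mean (limma adjusted p = 0.0711 and 0.0532). Lsm10, a subunit of the U7 snRNP that processes histone mRNA, stayed within 8.59 to 11.1 FPKM. Lsm11, the other such subunit, was below the filter at 0.630 and 0.531 FPKM in control and 0.559 and 1.06 FPKM in gelADSC.

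Libraries of 1 group also differed from each other in these genes. Control library 3 read lower than control library 1 for 59 of the 62 tested genes, by a median of -0.30 on the log2 scale (-0.21 over all tested genes). In gelADSC library 3, 56 of the 62 read higher than in gelADSC library 2, by a median of 0.25 (0.10 over all tested genes). For 25 of the 62 the difference between the control libraries was larger in size than that between the groups. The first is between single libraries and the second between means of 2 libraries, which vary less, so the 2 measures are unlike. The splicing genes together made up 0.427% and 0.342% of all FPKM in the controls and 0.269% and 0.342% in gelADSC, so control library 3 and gelADSC library 3 were alike in this sum. Fits without gelADSC library 3 also called Sf3b5 (adjusted p = 0.0114), Snrpc (0.0408) and Lsm4 (0.0466) lower, and fits without control library 3 called Srsf9 (0.04999) and Hnrnpd (0.0471) lower. Genes of mitosis and of S phase also differed between the gelADSC libraries. The summed level of 12 mitosis genes was 4.42 and 5.92 FPKM in control, 19.3 FPKM in gelADSC library 2 and 207 FPKM in gelADSC library 3, and that of 12 S phase genes was 66.6, 61.0, 120 and 225 FPKM in the same order. Their part in the difference between the gelADSC libraries was not tested.

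**Figure D3:**
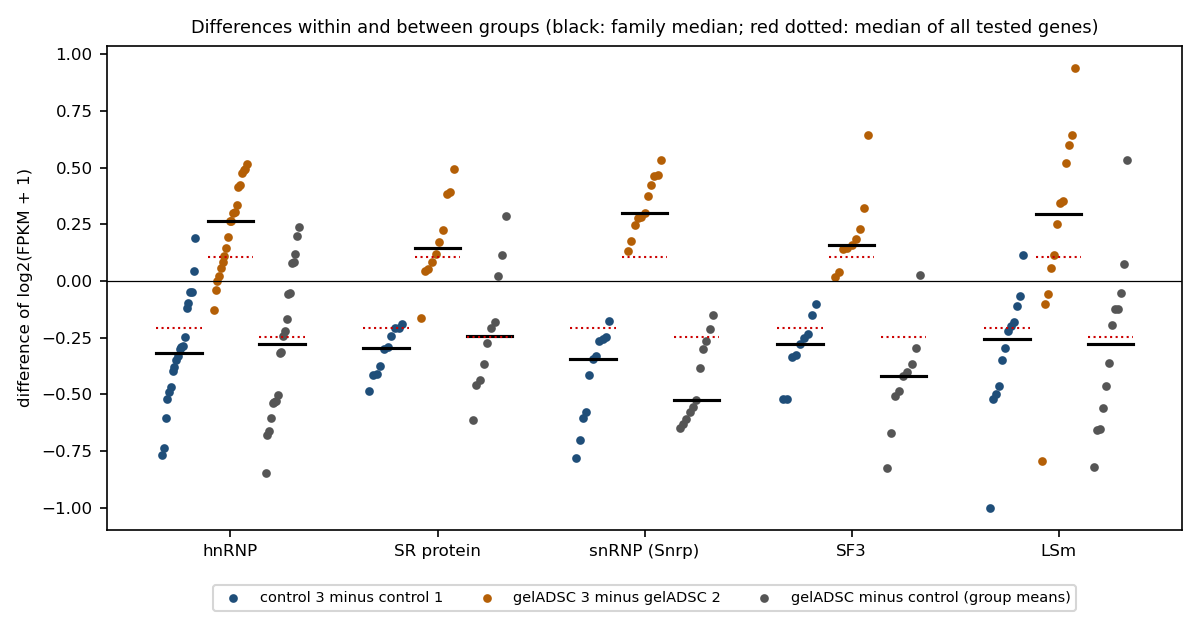
Differences of log2(FPKM + 1) for the tested splicing genes of each family, between the control libraries (blue), between the gelADSC libraries (orange) and between the group means (grey). Black bars are family medians and red dotted lines the medians of all tested genes. The difference between the control libraries has a median of -0.30 over the 62 genes, and that between groups a median of -0.36. The first is between single libraries and the second between means of 2 libraries, so the measures are unlike.

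Intervals around single genes were wide. The 95% interval of the log2 change reached between 0.42 and 0.76 to either side over the 62 genes, with a median of 0.49. For 19 of the 62 it included a change of -1, so a gene that was not called is not shown to be equal in the groups. Library sizes were roughly 18100000 to 24400000 reads, estimated from the step size of low values. With the longest coding transcript as length, the library with fewest reads held about 36.5 for Lsm5, 65.0 for Lsm7 and 372 for Sf3b4. Relative counting error is larger for genes with few reads, such as Lsm5. Its part in the spread between libraries was not tested.

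Annotated transcript types were compared as a feature outside the expression values. In GENCODE M21, 27 of the 62 tested splicing genes (43.5%) had a transcript marked for nonsense-mediated decay, against 29.7% of 10303 tested genes with a coding transcript. A transcript with a retained intron was annotated for 47 of the 62 (75.8%), against 61.2%. Many SR protein and hnRNP genes are known to limit their own level through such transcripts, and a gene-level FPKM adds these to the coding ones. Across the 62 genes, transcript length and log2 change had a Spearman correlation of 0.16, and across the 10303 genes 0.17. These are correlations across genes of the same 4 libraries and describe them only.

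Of the other genes of splicing and mRNA handling, a smaller share was called than of all tested genes. A total of 177 genes in 9 lists were in the table and 167 were tested. Of these 3 rose and 7 fell, where 6.92% of all tested genes rose and 17.5% fell. The middle log2 change of the 167 was -0.26, or -0.01 against the median of all genes. A1cf, the RNA-binding cofactor of apolipoprotein B mRNA editing, rose from 10.9 and 10.9 FPKM in control to 38.2 and 32.1 FPKM in gelADSC (log2 change 1.59, SE 0.19, limma adjusted p = 0.00109). Rbm3, an RNA-binding protein induced by cold, fell from 31.3 and 22.6 FPKM in control to 8.60 and 7.37 FPKM in gelADSC (log2 change -1.62, SE 0.22, limma adjusted p = 0.00180). Both groups were far apart in either gene, and both genes were called under all 12 alternative settings.

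The other called genes with higher values were Prpf8 and Srrm2. Prpf8, the scaffold at the catalytic centre, read 18.9 and 18.2 FPKM in control and 30.8 and 32.2 FPKM in gelADSC, and rose (log2 change 0.74, limma adjusted p = 0.0223). Srrm2, an SR-related protein of nuclear speckles, read 25.6 and 24.5 FPKM in control and 39.3 and 41.1 FPKM in gelADSC, and rose (log2 change 0.66, limma adjusted p = 0.0311). In both genes the libraries of a group were close together and the groups did not overlap. Both calls were lost in each fit that left out 1 library, with adjusted p values up to 0.114 for Prpf8 and 0.154 for Srrm2, while the log2 change stayed between 0.70 and 0.77 for Prpf8 and between 0.63 and 0.69 for Srrm2. The call of Srrm2 was also lost with no filter. In the tri-snRNP and catalytic list as a whole, 1 of 40 rose and 1, Prpf38a, fell, beside 6.92% and 17.5% of all tested genes.

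In the list of other hnRNP and polypyrimidine tract proteins, 0 of 20 rose and 3 fell, Rbm3 and Pcbp3 among them, beside 17.5% of all tested genes that fell. Pcbp3, a poly(C)-binding protein, read 1.98 and 1.32 FPKM in control and 0.528 and 0.479 FPKM in gelADSC (log2 change -0.81, limma adjusted p = 0.0406). At this low level its log2 change ran from -1.51 with a pseudocount of 0.1 to -0.27 with one of 5. Its call was lost with the latter, with no filter, with median ratio scaling and without control library 1 (adjusted p = 0.169). Of 15 genes of the SMN complex and snRNP assembly, which loads Sm proteins onto small nuclear RNA, 2 fell and 0 rose. Smn1, its central protein, read 9.22 and 5.74 FPKM in control and 3.77 and 3.36 FPKM in gelADSC (limma adjusted p = 0.0363), and Gemin7 read 37.0 and 27.7 against 18.7 and 19.3 FPKM (limma adjusted p = 0.0352). Mbnl2, a regulator of alternative splicing, fell from 17.5 and 14.0 FPKM to 9.52 and 9.27 FPKM (limma adjusted p = 0.0396). The calls of Smn1, Gemin7, Mbnl2 and Prpf38a were lost under either scaling, with no filter, and without control library 1, gelADSC library 2 or gelADSC library 3, where adjusted p reached 0.196 for Smn1. Those of Smn1 and Prpf38a were also lost with a pseudocount of 5. Limma called 0 of 19 U1 and U2 partners and 0 of 12 minor spliceosome genes. It also called 0 of 18 genes of the exon junction complex and mRNA export. The same held for 8 decapping and decay partners of the Lsm1 to Lsm7 ring. In that order, 4, 0, 3 and 1 of them had an unadjusted p under 0.05, against 39.9% of all tested genes.

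**Figure D4:**
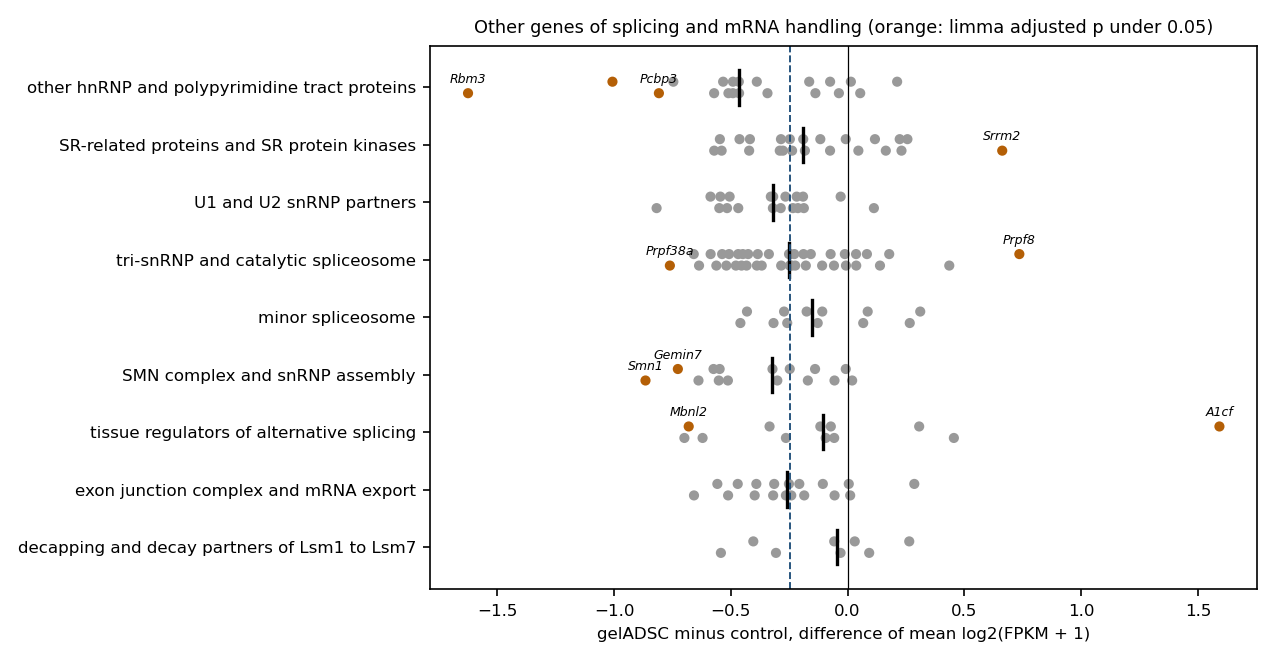
Log2 changes (gelADSC minus control, on log2(FPKM + 1)) of the 167 tested genes in 9 lists of splicing and mRNA handling. Black bars are list medians, the dashed line is the median of all tested genes (-0.25), and orange marks the 3 called higher (Prpf8, Srrm2 and A1cf) and the 7 called lower, with names beside the genes described in the text.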

How the data were processed

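Liver RNA of 2 control and 2 gelADSC samples was analysed. Libraries were stranded and enriched for mRNA (TruSeq), per the labels' protocols, but no source says whether strand was used in counting. The deposited table gives 1 value per gene symbol and library with no unit in its header. The values were taken as FPKM, made by the authors, since Cufflinks 2.2.1 stands with Trimmomatic 0.38 and TopHat2 2.1.1 in the submitters' processing notes. The only build in those notes is hg19, a human one that mouse symbols cannot come from, so the true build and annotation are unknown. Sample titles number both groups 1 and 2 and the columns 1, 3, 2 and 3, so libraries carry the column's number and were not paired.

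The members and gene lists were chosen with earlier results of these data known. limma 3.58.1 (R 4.3.3, mean-variance trend, two-sided) was fitted to log2(FPKM + 1) of every gene averaging 1 FPKM or more, with Benjamini-Hochberg adjustment and a threshold of 0.05. For a single gene, the smallest two-sided p of an exact permutation test of 2 against 2 libraries is 0.333, so none was used. The script was tested on simulated data. Values in every library were given for called members, the 2 most abundant of each family, members against their family's direction, the close copies Snrpb with Snrpn and Hnrnpa1 with Hnrnpa3, and up to 2 called genes per list and direction. Hnrnpk, Hnrnpl, Srsf9, Snrpg, Snrpc, Lsm1, Lsm14a, Lsm14b and Lsm10 were named after their values were seen. The values of 1 listed gene are not reported here. Near-identical copies were sought with BLAST 2.17.0 in GENCODE M21 transcripts. The alternatives were other pseudocounts, filters and scalings, no trend, and leaving out each library.

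Marker lists for the labelled tissue and other cell types were summed per library. The 10 hepatocyte markers summed to between 58538 and 83789 FPKM, and lymphocyte markers to at most 2.97 FPKM. Sums per library, as control 1, control 3, gelADSC 2 and gelADSC 3, were 178, 319, 63.5 and 55.2 FPKM for cholangiocytes, 334, 397, 427 and 276 for Kupffer cells and 78.6, 73.9, 80.7 and 27.6 for monocytes and neutrophils. They were 112, 103, 112 and 104 FPKM for sinusoidal endothelium, 164, 74.5, 134 and 108 for stellate cells and 108, 80.7, 79.3 and 54.6 for adipose-derived stromal cells. Erythroid markers gave 11.0, 9.99, 40.1 and 38.9 FPKM, nearly all from Alas2, with Hba-a1 and Hbb-b1 at 0. The part of these cell types in the results was not tested.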

Additional observations from a re-analysis of the deposited data

How the results depend on the processing

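No paired analysis was possible because the columns of the groups share only the number 3. Over all splicing genes, 0 were called lower with no filter, median ratio scaling or quantile normalization and 9 with a filter of at least 5 FPKM, and 2 were called higher with either scaling. All genes gave 4.16% lower (730 of 17563) with no filter and 27.4% (1932 of 7046) with the 5 FPKM filter, against which the 9 stood among 56 tested splicing genes, and 948 lower and 952 higher with median ratio scaling and 1000 and 931 with quantile normalization. Leaving out 1 library gave 0 to 7 lower, with 0 when it was control library 1 or gelADSC library 2, 7 for control library 3 and 6 for gelADSC library 3. In the same order, all genes gave 2.94%, 11.03%, 15.9% and 14.1% lower. In these fits the group left with 1 library is assumed to vary like the other.

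By family, hnRNP genes gave 0 lower with no filter or either scaling, 1 with no mean-variance trend, and 0 to 4 with a library left out. SR protein genes gave 1 higher with either scaling, 1 lower with the 5 FPKM filter, and 0 to 1 lower with a library left out. Snrp genes gave 3 lower with that filter and 0 to 1 with a library left out, and SF3 genes 0 with no filter or either scaling and 0 to 1 with a library left out. LSm genes gave 1 higher with either scaling, 1 lower with a pseudocount of 0.1, 2 with the filter and 0 to 2 with a library left out. Of all tested genes, 27.4% were called lower with the 5 FPKM filter, 18.4% with a pseudocount of 0.1 and 16.6% with no mean-variance trend. No filter gave 4.16% lower. Median ratio scaling gave 8.56% lower and 8.60% higher, and quantile normalization 9.03% and 8.41%. Shares for fits without 1 library are given above. With the 5 FPKM filter the 3 Snrp genes were among 11 tested, the 2 LSm genes among 10 and the 1 SR protein gene among 9. The cause of the changes between settings was not tested, beyond the fewer samples or genes in some fits.

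Signs changed for 24 of the 62 genes under some setting, and 0 of these values were called. With median ratio scaling the log2 change was 0.201 for Hnrnpa3, 0.0834 for Srsf5, 0.0780 for Snrpd3 and 0.106 for Srsf2. With quantile normalization it was 0.184 for Hnrnpa3, 0.0138 for Sf3b2, 0.0182 for Snrpd3 and 0.0509 for Srsf2. With 1 library left out, it ranged from -0.138 to 0.379 for Hnrnpul1, -0.163 to 0.328 for Hnrnpa2b1, -0.0186 to 0.173 for Hnrnpc and -0.230 to 0.117 for Hnrnpa3. The same range was -0.0478 to 0.0966 for Sf3b1, -0.223 to 0.270 for Srsf7, -0.246 to 0.398 for Lsm2 and -0.0766 to 0.307 for Srsf1.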
